A study of Mus musculus with 4 samples.

Results

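T cell receptor variable segments are the genes that encode the part of each T cell receptor chain that meets antigen. They were taken as all genes whose symbol starts with Trav, Trbv, Trgv or Trdv, which gave 178 genes of the annotation. The deposited files list transcripts of 54115 genes, and 161 of the 178 are among these. These are 130 Trav segments of the alpha chain and 6 Trdv segments of the delta chain on chromosome 14, 35 Trbv segments of the beta chain on chromosome 6, and 7 Trgv segments of the gamma chain on chromosome 13 (GRCm38, GENCODE M21). Trav segments with dv in their name can also be used by the delta chain, and they were counted with Trav only. Of the 178 segments, 144 are annotated as V genes and 34 as pseudogenes.

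The libraries were RNA-seq of tumours that grew in mice from injected MC38 cells, a mouse colon adenocarcinoma line. In the saline group, 10 consecutive daily intraperitoneal injections of saline were given, and 2 libraries were made. The vanoxerine group received vanoxerine, an inhibitor of the dopamine transporter, at 25 mg/kg by the same route and schedule, and also has 2 libraries. All 4 libraries carry the same injected line, and the labels give no strain, age or genotype of the host. Nor do they say whether replicate 1 and replicate 2 of a group are different animals. A p-value here therefore reflects how much 2 libraries of a group varied, and that variation may be technical.

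In each developing T cell, one variable segment of a chain is joined by DNA recombination to a joining segment (and, in beta and delta chains, a diversity segment) and transcribed with a constant gene. All T cells of a clone carry the same joined segments, so the mix of variable segments in a tissue is often read as a coarse picture of which T cells are present. A pair of invariant alpha chains is known by their segment in the mouse: Trav11 in the natural killer T cells that recognise lipids on CD1d, and Trav1 in the mucosal-associated invariant T cells that recognise metabolites on MR1.

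The libraries held 67289273 to 75748162 estimated reads, of which the V genes had 2720 to 3122 per library. Joining and diversity segments, with annotated transcripts of 9 to 72 bases, had 0 reads in all 4 libraries, so joined sequences and clones are not analysed here. The sum of the 12 T cell markers was 655 and 662 CPM (read counts scaled to library size with TMM factors) in saline and 672 and 651 CPM in vanoxerine. The sum of the 6 macrophage markers was 393 and 411 CPM in saline and 3053 and 3091 CPM in vanoxerine, and its part in the results on segments was not tested. Markers of T cells were present in every library, with Cd3e at 40.2 to 46.5 CPM. In bulk tumour RNA, fewer cells of a type and less RNA per cell cannot be told apart.

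Reads were found for 114 of the 178 segments, namely 82 Trav, 22 Trbv, 6 Trgv and 4 Trdv, and for 36 of them in all 4 libraries. The other 64 had none. Of these, 17 are Trav segments without a transcript of their own in the deposited files, since their annotated transcripts are identical in sequence to that of a copy that is listed. Only 52 segments passed the filter on low counts (30 Trav, 17 Trbv, 2 Trgv and 3 Trdv) and could be tested.

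The segments whose beta chain reads differed most between the groups are shown by their last 60 bases, where the segment meets the joining region. Capitals mark the codon of the conserved cysteine near this end, found as the last 3 bases of the motif TACNNNTGT, with TAT for TAC or TGC for TGT also allowed. The sequences are from the GENCODE M21 transcripts on GRCm38, all on the forward strand, at chr6:41048769-41048828 for Trbv3, chr6:40891826-40891885 for Trbv1, chr6:41227934-41227993 for Trbv26, chr6:41141599-41141658 for Trbv15 and chr6:41062744-41062803 for Trbv5.
Trbv3: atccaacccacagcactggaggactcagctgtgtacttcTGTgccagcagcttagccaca
Trbv1: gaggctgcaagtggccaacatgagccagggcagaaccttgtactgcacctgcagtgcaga
Trbv26: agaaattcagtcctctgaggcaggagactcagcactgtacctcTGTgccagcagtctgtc
Trbv15: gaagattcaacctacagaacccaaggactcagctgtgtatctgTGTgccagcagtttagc
Trbv5: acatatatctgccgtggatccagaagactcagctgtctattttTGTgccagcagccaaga
The motif was found in the last 60 bases of 163 of the 178 segments (91.6%) on the coding strand and of 2 (1.12%) on the other. Trbv1 has no match in this window and is printed without capitals. The 5 segments lie along the beta locus in the order Trbv1, Trbv3, Trbv5, Trbv15 and Trbv26, with 156404, 13503, 78384 and 85846 bases from each to the next, and other segments lie between them.

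The comparison asked whether the mix of variable segments differed between vanoxerine and saline tumours. By edgeR's quasi-likelihood test at a Benjamini-Hochberg adjusted p under 0.05, 7 of the 52 segments tested were higher and 6 were lower in vanoxerine. Over all 18758 genes tested, 21.0% were called higher and 15.9% lower. The share of segments called was thus below that of all genes in both directions, without a test of that difference. With duplicated Trav copies merged, 5 of 49 were higher and 8 were lower, and the lower share was then close to that of all genes. Both vanoxerine libraries stood above both saline libraries for 23 of the 52 segments and below them for 12, where the background is 35.8% and 34.9% of all genes tested. The median log2 fold change was 0.40 over the 52 segments and -0.0096 over all genes tested, but segments that passed the filter only through one group had to differ. The counts depended on which library was left out, and not for the segments alone. In both directions, fewer segments and fewer of all genes were called without either vanoxerine library. More of both were called without either saline library.

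Trbv3 moved from one of the rarer beta segments in saline to the most frequent in vanoxerine. It had 17 and 13 reads in saline and 390 and 413 in vanoxerine. These were 0.865% (95% Wilson interval 0.541 to 1.38) and 0.799% (0.468 to 1.36) of the beta chain's variable reads in saline, and 20.7% (18.9 to 22.6) and 24.1% (22.1 to 26.1) in vanoxerine. The groups were far apart, and the intervals of the 2 libraries of a group overlapped. Relative to all genes the log2 fold change was 4.86 ± 0.26 (SE; edgeR quasi-likelihood test, adjusted p = 9.2e-05). In the authors' deposited table its log2 fold change is 4.82, with an adjusted p of 8.33e-28. Intervals here cover counting error only, since PCR reads without molecular identifiers are not independent molecules.

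Trbv26 showed the opposite pattern. It had 275 and 257 reads in saline and 4 and 12 in vanoxerine, or 14.0% and 15.8% of the beta chain's variable reads against 0.212% and 0.699%. One of the leading beta segments of the saline libraries was thus nearly missing from both vanoxerine libraries. Its log2 fold change was -4.90 ± 0.51 (SE; edgeR quasi-likelihood test, adjusted p = 0.000975), and the authors' deposited table gives -4.72. Trbv3 and Trbv26 kept their call and direction under all 13 alternative settings, including those that leave out each library.

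Trbv1, which lies first in the locus among the segments shown, was also higher in vanoxerine. It had 15 and 45 reads in saline and 159 and 156 in vanoxerine, which is 0.763% and 2.77% against 8.43% and 9.09% of beta reads. Its log2 fold change was 2.49 ± 0.57 (SE; edgeR, adjusted p = 0.0177). The saline libraries differed from each other by more than their counting intervals, and the vanoxerine libraries did not. Without vanoxerine replicate 1 or 2 its adjusted p was 0.0633 or 0.0731.

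Trbv15 and Trbv5 were lower in vanoxerine, by less than Trbv26. In the authors' deposited table their log2 fold changes are -0.85 and -0.80, with an adjusted p under 0.05 for Trbv15 only. Trbv15 had 300 and 215 reads in saline and 121 and 97 in vanoxerine, or 15.3% and 13.2% of beta reads against 6.42% and 5.65%. Its log2 fold change was -1.11 ± 0.26 (SE; edgeR, adjusted p = 0.0197), and the adjusted p was 0.0871 or 0.1496 without vanoxerine replicate 1 or 2. The groups did not overlap for either segment. Trbv5 had 221.75 and 121.17 estimated reads in saline and 69.88 and 59.83 in vanoxerine, not whole numbers because Salmon divided some of its reads with another transcript. Its share was 11.3% and 7.45% of beta reads in saline and 3.71% and 3.49% in vanoxerine, with a log2 fold change of -1.26 ± 0.36 (SE; edgeR, adjusted p = 0.0394). This call was lost without saline replicate 1 (0.0597), without vanoxerine replicate 1 (0.156) or 2 (0.200), with limma-voom (0.0586) and with log2(TPM + 1) (0.102).

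Together the 2 segments called higher held 1.63% and 3.57% of beta reads in saline and 29.1% and 33.1% in vanoxerine. The 3 called lower held 40.5% and 36.5% in saline and 10.3% and 9.84% in vanoxerine. The other 17 beta segments with reads had a combined share of 57.8% and 59.96% in saline and 60.6% and 57.0% in vanoxerine. The segments were grouped here by their calls, so these sums are a description. Among the 22 segments with reads, 5 had higher and 6 had lower shares in both vanoxerine libraries than in both saline libraries. Some of the 17 are among them. By CPM, the groups did not overlap for 35.8% (higher) and 34.9% (lower) of all genes tested, so these counts were not read as a result about the segments.

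**Figure D1:**
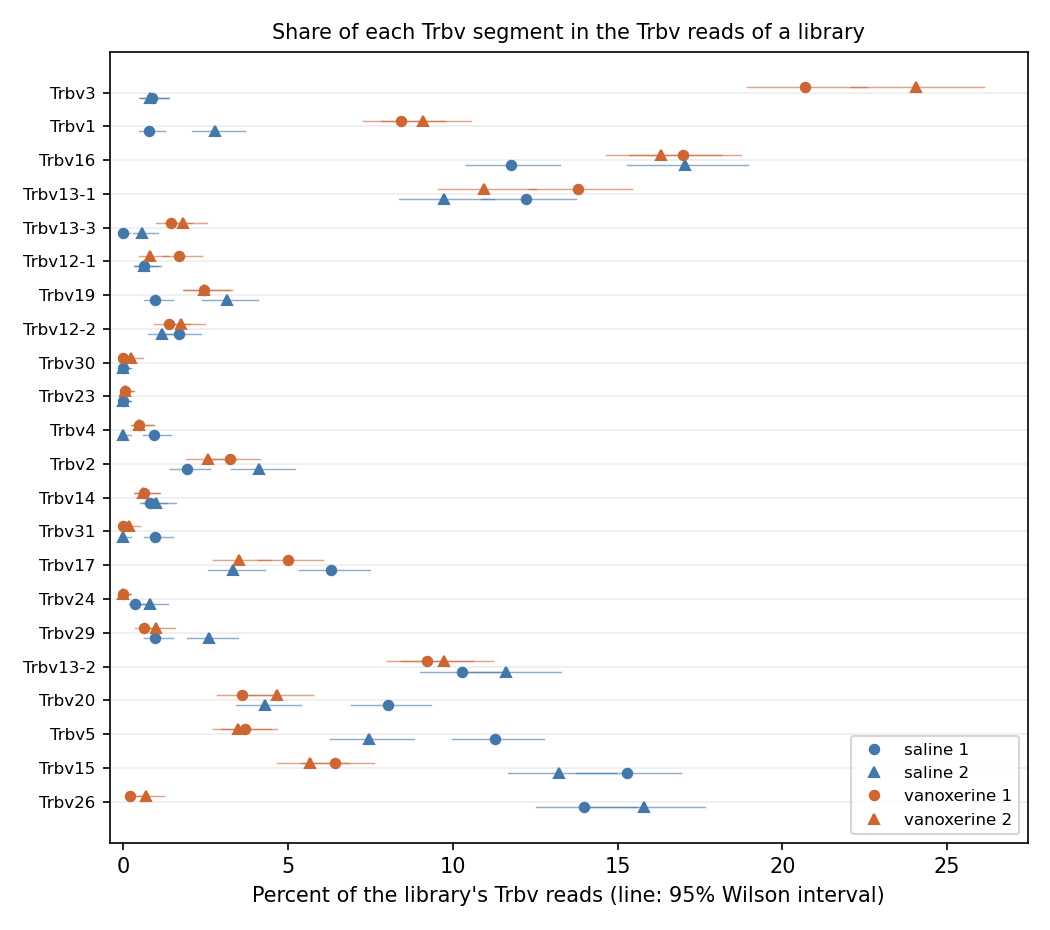
Each of the 22 Trbv segments with reads is placed by its percent of the library's Trbv reads (horizontal axis), 1 point per library (blue saline, orange vanoxerine), with 95% Wilson intervals as lines. Trbv3 lies at 20.7% and 24.1% in vanoxerine against 0.865% and 0.799% in saline, and Trbv26 at 0.212% and 0.699% against 14.0% and 15.8%.

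Among the beta segments that were not called, Trbv16 held the most reads over the 4 libraries. It had 231 and 277 reads in saline and 320 and 280 in vanoxerine, or 11.8% and 17.0% against 17.0% and 16.3%, and the groups overlapped in share. Its log2 fold change was 0.36 ± 0.21 (SE; edgeR, adjusted p = 0.230). Trbv13-1 had 240 and 158 reads in saline and 260 and 188 in vanoxerine, with shares of 12.2% and 9.72% against 13.8% and 10.95%. Trbv13-2 had 202 and 189 reads in saline and 174 and 167 in vanoxerine, at 0.838 the highest adjusted p of the beta segments named here (edgeR). The Trbv13 family, summed over its segments, held 22.5% and 21.9% of beta reads in saline and 24.4% and 22.5% in vanoxerine.

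Trbv20 differed mainly between the saline libraries. It had 158 and 70 reads in saline and 68 and 80 in vanoxerine, so that saline replicate 1 stood apart from the other 3 libraries. Trbv13-3 had 0 and 9 reads in saline and 27 and 31 in vanoxerine, and Trbv12-1 had 12 and 10 against 32 and 14. Neither was called (edgeR adjusted p = 0.167 and 0.298), although their groups do not overlap in share. Of the scarce segments, 3 had reads in one group alone: Trbv24, with 7 and 13 reads in saline, Trbv23, with 1 read in each vanoxerine library, and Trbv30, with 4 reads in vanoxerine replicate 2. None of them passed the filter on low counts.

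Beta segment use was close between the vanoxerine libraries and less close between the saline libraries. The shared share, which is the sum over segments of the smaller of the 2 percentages, was 92.4% for the vanoxerine pair and 82.4% for the saline pair. It was 59.4% to 66.0% for the 4 pairs between groups. In a chi-square comparison of read counts, where 1 per degree of freedom is what counting noise alone gives, the values were 2.0 for the vanoxerine pair, 10.3 for the saline pair and 45.6 to 57.0 between groups. These values describe pairs of libraries and are no test of the treatment.

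The alpha chain had 843 and 867 variable reads in saline and 933 and 869 in vanoxerine, spread over 82 segments. Much of the mouse Trav locus exists in up to 3 near-identical copies, named with the letters d and n. Of 58 segments left after merging copies of one name, 40 have more than 1 copy, and the 104 pairs of copies have a median identity of 97.6% (lowest 87.1%), with 22 pairs that do not differ over the length of the shorter copy. Different segments of one family have a median identity of 83.6%, with a highest of 97.9%. Salmon divides reads that match several transcripts by estimate, so the values of single copies are uncertain. Merged values can carry some of this uncertainty too. Each value below is given as that of a single copy or of merged copies.

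The most frequent alpha segment shows what the copies do to single values. Trav7-2 had 112 and 127 reads in saline but 0 and 97 in vanoxerine, while Trav7d-2 had 101 reads in vanoxerine replicate 1 and 0 in the other libraries. Their transcripts differ by 1 base, an extra base at the 3′ end of Trav7d-2, shown here in capitals with the bases before it (GENCODE M21 transcripts, forward strand, chr14:53391083-53391142 for Trav7-2 and chr14:52684412-52684472 for Trav7d-2).
Trav7-2: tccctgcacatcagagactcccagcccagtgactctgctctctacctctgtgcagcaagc
Trav7d-2: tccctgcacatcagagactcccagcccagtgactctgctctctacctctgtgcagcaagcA
Merged, the pair had 112 and 127 reads in saline and 101 and 97 in vanoxerine, which is 13.3% and 14.7% of alpha reads against 10.8% and 11.2%. The merged log2 fold change was -0.15 ± 0.29 (SE; edgeR, adjusted p = 0.737).

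Of the 30 Trav segments tested as annotated, 5 were higher and 3 were lower in vanoxerine. After merging, 3 of 27 were higher and 5 were lower, with the background over all genes at 21.0% and 15.9% as before. The calls that held at both levels were Trav7-5 and Trav11 (as Trav11n) on the higher side, and Trav1, Trav6-5 and Trav6-6 (as Trav6d-6) on the lower side. Trav16n, Trav6-3 and Trav12-3 were called as single copies only. Trav15-1, Trav10 and Trav14-2 were called after merging only. Trav7-5, Trav1, Trav11, Trav12-3 as a single copy and merged Trav14-2 had reads in a single group. They passed the filter on low counts only through that group. Their calls could go in that direction only, and the p-values add no support. Of the single copies called, the authors' deposited table gives an adjusted p for Trav16n and Trav6d-6 only. Its log2 fold change for Trav1 is -0.30.

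Trav7-5 and Trav1 had reads in one group alone, and their last 60 bases are shown with the cysteine codon in capitals (GENCODE M21, forward strand, chr14:53531254-53531313 for Trav7-5 and chr14:52428817-52428876 for Trav1).
Trav7-5: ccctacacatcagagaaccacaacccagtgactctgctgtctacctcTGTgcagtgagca
Trav1: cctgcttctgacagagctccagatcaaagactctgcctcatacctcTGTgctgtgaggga
Trav7-5 had 0 reads in both saline libraries and 33 and 40 in vanoxerine. Against a limit of 3 reads per saline library, its share of alpha reads was at least 11.6-fold higher in vanoxerine. The edgeR adjusted p was 0.0076, but Trav7-5 passed the filter on low counts only through vanoxerine, so this p adds no support. Its nearest listed copy, Trav7d-5, is 95.9% identical and had 3 reads in vanoxerine replicate 2 only. Without vanoxerine replicate 1 or 2 the adjusted p of Trav7-5 was 0.0815 or 0.127.

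Trav1, the segment of the mucosal-associated invariant T cell chain, had 31 and 33 reads in saline and 0 in both vanoxerine libraries. It held 3.68% and 3.81% of alpha reads in saline. Its share was at least 11.2-fold lower in vanoxerine against the limit of 3 reads per library (edgeR adjusted p = 0.0106). Trav1 passed the filter on low counts only through saline, so this p adds no support. Trav1 has no duplicated copy, so the value does not rest on how reads were divided among copies. Without vanoxerine replicate 1 or 2 the adjusted p was 0.0742 or 0.0756. Mr1, which encodes the molecule that presents antigen to these cells, had 11.3 and 10.7 CPM in saline and 13.7 and 13.4 CPM in vanoxerine (edgeR adjusted p = 0.0599).

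Trav11, the segment of the invariant natural killer T cell chain, had no reads of its own. The reads of its copies were in vanoxerine only, mostly with Trav11n. Whether they came from invariant natural killer T cells was not tested. Trav11 itself had 0 reads in all 4 libraries, Trav11d had 3 in each vanoxerine library, and Trav11n had 29 and 25 in vanoxerine and 0 in saline. Trav11n is annotated as a pseudogene and differs from Trav11 at 8 of 343 bases. Trav11d is shorter, with 342 bases, and does not differ from Trav11 over that length. The stretch with the last 3 of these differences is shown with the differing bases in capitals (GENCODE M21, forward strand, chr14:53519728-53519787 for Trav11 and chr14:53135547-53135606 for Trav11n).
Trav11: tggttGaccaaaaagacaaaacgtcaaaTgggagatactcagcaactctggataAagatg
Trav11n: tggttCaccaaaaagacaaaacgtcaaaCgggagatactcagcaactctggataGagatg
Merged, Trav11 had 0 and 0 reads in saline and 32 and 28 in vanoxerine, or 3.43% and 3.22% of alpha reads. This was at least 9.48-fold higher in share than 3 reads per saline library would give (edgeR adjusted p = 0.0102). The merged segment passed the filter on low counts only through vanoxerine, so this p adds no support. The call of Trav11n was lost without vanoxerine replicate 1 or 2 (adjusted p = 0.172 or 0.152). Of the genes tied to innate-like T cells, Klrb1c, which encodes the receptor NK1.1 of natural killer and natural killer T cells, was higher in vanoxerine, with a log2 fold change of 0.78 ± 0.10 (SE; edgeR adjusted p = 0.00225). Zbtb16, which encodes the transcription factor PLZF, had 0.58 and 0.62 CPM in saline and 1.03 and 1.15 CPM in vanoxerine and was not called (0.136). Cd1d1, which encodes the lipid-presenting molecule, was not called either (0.698). Klrb1c is also 1 of the 5 natural killer cell markers. Of the other 4, Klra8 and Eomes were called higher (adjusted p = 0.00117 and 0.00135) and Ncr1 and Klre1 were not called (0.246 and 0.0605). The sum of all 5 was 115.5 and 109.8 CPM in saline and 168 and 159 CPM in vanoxerine. Their part in the result was not tested.

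Trav6-6 had the largest saline share among the merged alpha segments called lower in vanoxerine. Its reads were listed under Trav6d-6, since Trav6-6 has the same sequence and no transcript of its own in the files. Merged, they numbered 99 and 76 in saline and 14 and 9 in vanoxerine, or 11.7% and 8.77% of alpha reads against 1.501% and 1.04%. The merged log2 fold change was -2.79 ± 0.50 (SE; edgeR, adjusted p = 0.0074). As Trav6d-6 alone, the adjusted p was 0.0140, and it was 0.0667 without vanoxerine replicate 2. Trav10 had 56 and 51 merged reads in saline and 13 and 15 in vanoxerine, with a log2 fold change of -1.79 ± 0.54 (SE; edgeR, adjusted p = 0.0466). As a single copy Trav10 was not called (0.0804).

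Other lower segments were smaller. Trav6-5 had 16 and 43 merged reads in saline and 2 and 1 in vanoxerine (edgeR adjusted p = 0.0280). As a single copy its adjusted p was 0.0373, and the call was lost without saline replicate 2 (0.160), without vanoxerine replicate 1 (0.304) or 2 (0.384), with limma-voom (0.0571), without the filter on low counts (0.0676) and with the replicate block (0.0947). Trav14-2 had 28 and 14 merged reads in saline and 0 in both vanoxerine libraries, a share at least 7.40-fold lower (edgeR adjusted p = 0.0229). Merged Trav14-2 passed the filter on low counts only through saline, so this p adds no support. Its single copies did not pass the filter on low counts. Both vanoxerine libraries stood below both saline libraries for each of these segments.

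On the higher side, Trav16 gave the largest merged share in vanoxerine but was not called after merging. Its copies together had 11 and 48 reads in saline and 127 and 88 in vanoxerine, or 1.31% and 5.54% of alpha reads against 13.6% and 10.1% (edgeR adjusted p = 0.0802). The saline libraries lay outside each other's intervals. As a single copy, Trav16n had 11 and 17.3 reads in saline and 90.1 and 74.5 in vanoxerine, with a log2 fold change of 2.66 ± 0.50 (SE; edgeR, adjusted p = 0.0091; 0.0986 or 0.0721 without vanoxerine replicate 1 or 2). Copies of Trav16 differ at 6 to 12 bases of the shorter transcript.

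Trav12-3 and Trav6-3 followed the same course, and their single copies passed the filter on low counts only through vanoxerine. Trav12-3 as a single copy had 0 reads in saline and 25.8 and 10.8 in vanoxerine, a share at least 5.72-fold higher (edgeR adjusted p = 0.0260; 0.174 without vanoxerine replicate 2 and 0.0530 with the replicate block). Its copies together had 14 and 0 reads in saline and 71.7 and 43.9 in vanoxerine (adjusted p = 0.101). Trav6-3 had 3 and 0 reads in saline and 18 and 52 in vanoxerine as a single copy (edgeR adjusted p = 0.0380; 0.105 or 0.477 without vanoxerine replicate 1 or 2, 0.0663 with the replicate block and 0.0773 with log2(TPM + 1)). Merged, it had 3 and 12 reads against 18 and 52 (0.122). Trav15-1 had 0 and 3 merged reads in saline and 21 and 33 in vanoxerine, close to the threshold (edgeR adjusted p = 0.0490). Its copy Trav15d-1-dv6d-1 alone was not called (0.0562). The copies of Trav15-1 with reads have dv in their names, and whether these reads came from alpha or delta chains was not tested.

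In some alpha segments with large shares, 1 saline library stood apart and no call was made. Trav5-4 had 3 and 79 merged reads in saline and 58 and 66 in vanoxerine (edgeR adjusted p = 0.695, and 0.681 as a single copy). Trav9-3, whose reads were listed under Trav9d-3, had 0 and 26 in saline and 82 and 75.8 in vanoxerine (edgeR adjusted p = 0.165). In both cases saline replicate 1 had the fewest reads. As a single copy, Trav9d-3 was called without saline replicate 1 (0.00525) or 2 (1.5e-07), with limma-voom (0.0468) and with log2(TPM + 1) (0.0365), and its log2 fold change ran from 1.65 to 9.37 over the alternatives. Trav12d-2 had 87 and 42 reads in saline and 13.8 and 19 in vanoxerine, a difference in the other direction that also missed the threshold (edgeR adjusted p = 0.0568). Merged as Trav12-2, it had 92 and 50 reads against 26.9 and 24.3 (0.0844).

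**Figure D2:**
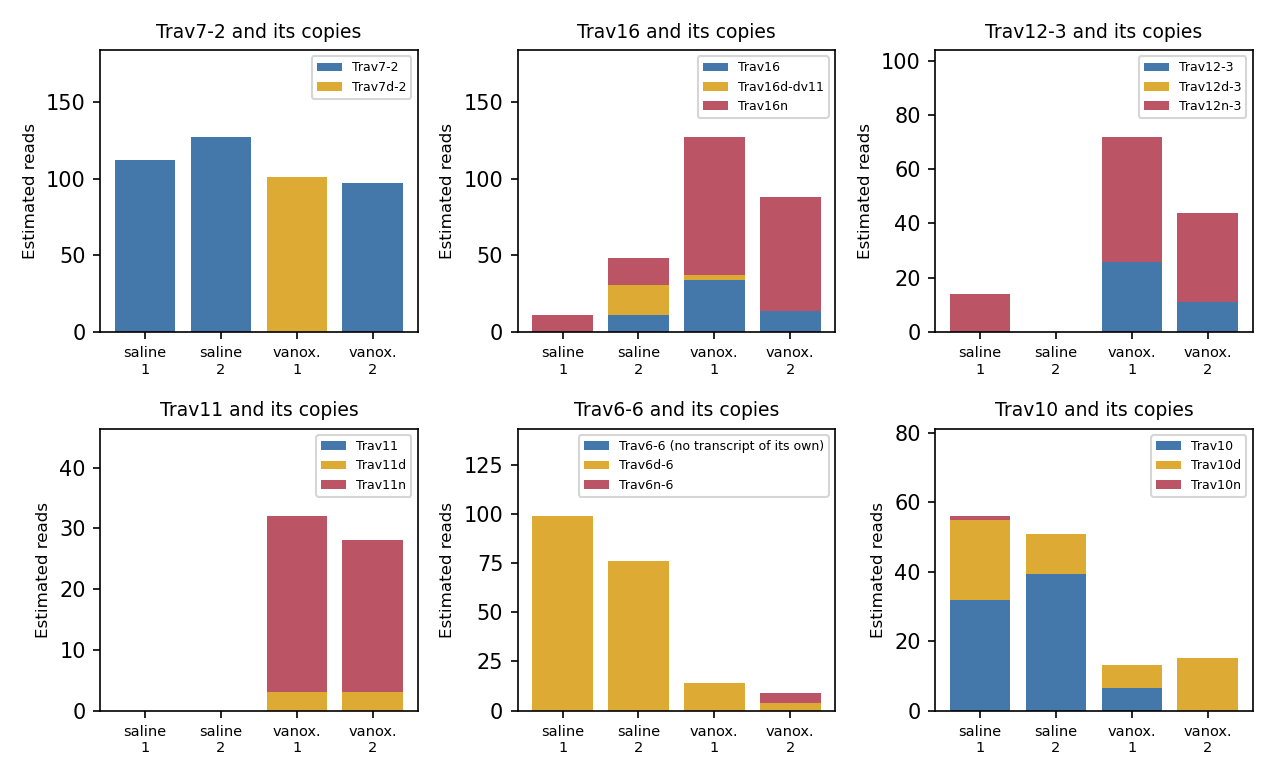
Estimated reads (vertical axis, with its own scale in each panel) are stacked by copy for 6 Trav segments in each of the 4 libraries. The reads of Trav7-2 pass from Trav7-2 to Trav7d-2 in vanoxerine replicate 1 while their sum stays at 97 to 127. The merged reads of Trav11 lie mostly with its copy Trav11n, and none with Trav11 itself.

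The merged segments called higher (Trav7-5, Trav11 and Trav15-1) held 0% and 0.346% of alpha reads in saline and 9.22% and 11.97% in vanoxerine. Those called lower (Trav1, Trav10, Trav14-2, Trav6-5 and Trav6-6) held 27.3% and 25.0% in saline and 3.11% and 2.88% in vanoxerine. Segments that were not called made up the rest. As for beta, the segments were grouped by their calls in these libraries, so these sums are a description. The shared share of merged segments was 81.6% for the vanoxerine pair, 63.9% for the saline pair and 40.9% to 54.9% between groups. With copies kept apart the same values were 66.9%, 55.3% and 24.0% to 43.7%. At both levels, as for the beta chain, the vanoxerine pair was highest, then the saline pair, then the pairs between groups. This order did not hold for Trav summed by family, where the saline pair had 72.2% and 1 pair between groups 73.6%. Nor did it hold for Trdv, where saline replicate 1 and vanoxerine replicate 1 had the highest value (96.3%). For Trgv, the vanoxerine pair (82.2%) was below the saline pair (91.9%).

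**Figure D3:**
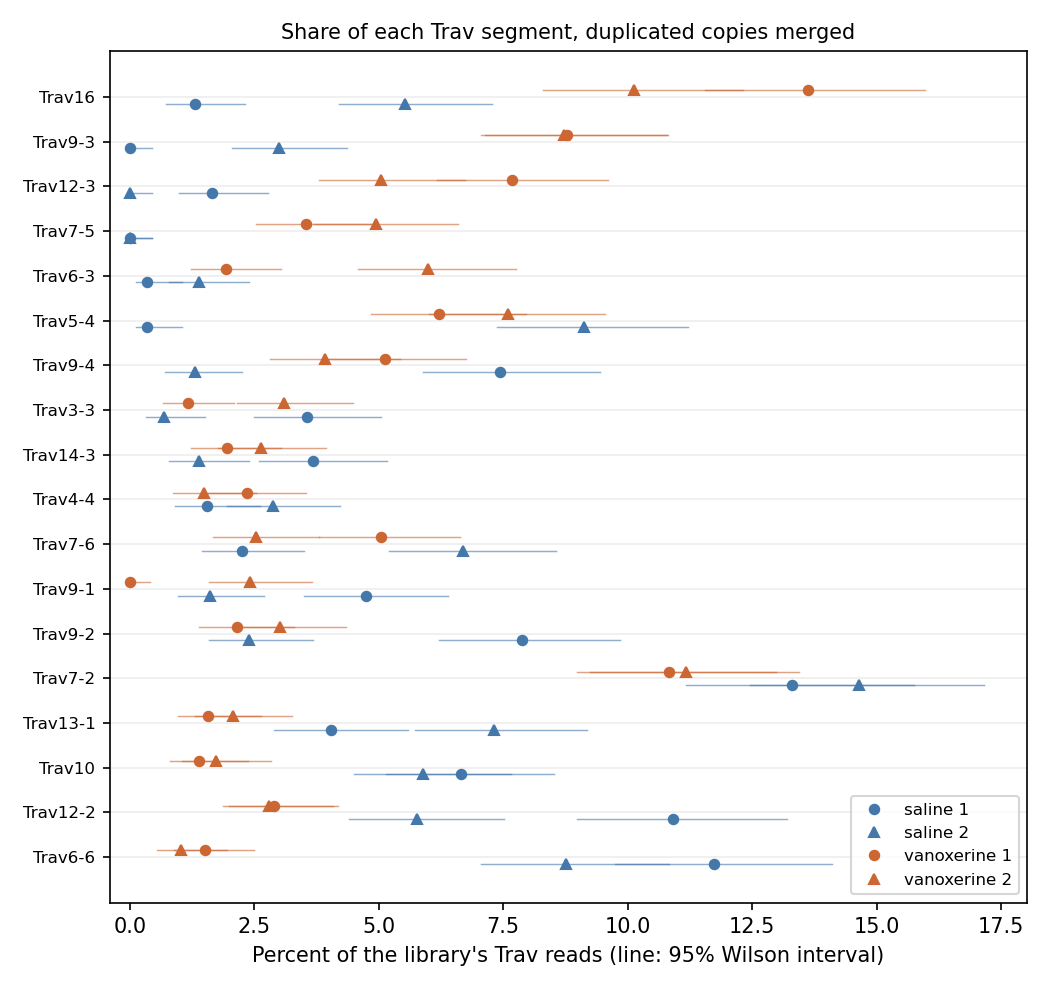
The merged Trav segments with a mean share of at least 2% over the 4 libraries are placed by their percent of the library's Trav reads (horizontal axis), 1 point per library, with 95% Wilson intervals as lines. Trav7-5 is at 0 in both saline libraries and at 3.54% and 4.95% in vanoxerine, and Trav6-6 is at 11.7% and 8.77% in saline and at 1.501% and 1.04% in vanoxerine.

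**Figure D4:**
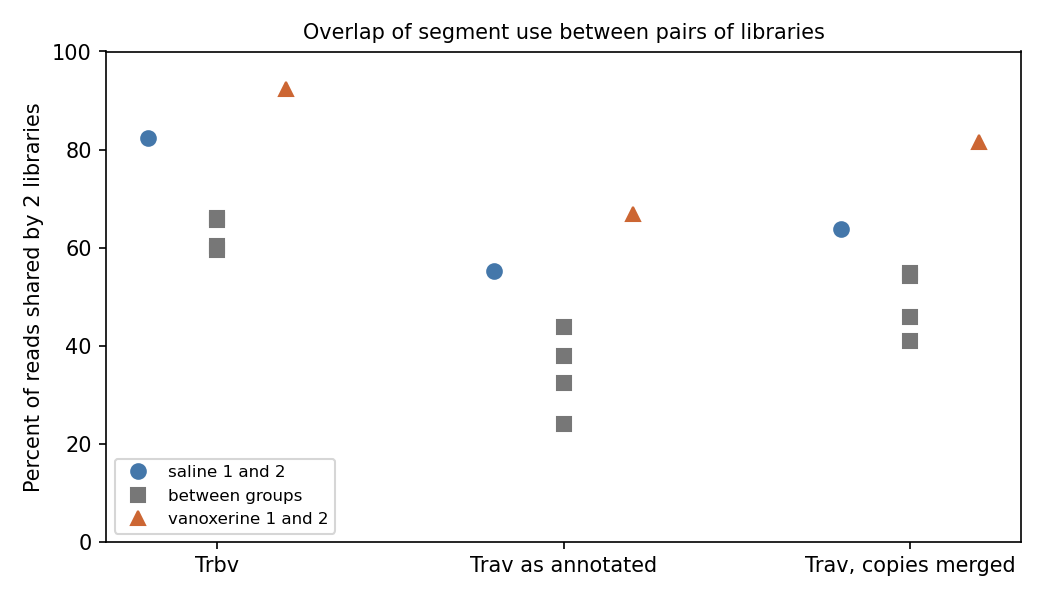
The percent of reads shared by 2 libraries (vertical axis) is drawn for Trbv, for Trav with copies kept apart and for Trav with copies merged, 1 point per pair of libraries. For all of these the vanoxerine pair (92.4%, 66.9% and 81.6%) lies highest, then the saline pair (82.4%, 55.3% and 63.9%), and the 4 pairs between groups lie lowest.

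The evenness of segment use was read as the effective number of segments, the inverse Simpson index, which is the number of equally frequent segments that would give the same concentration. The saline libraries had 9.38 and 9.30 for beta, and the vanoxerine libraries 8.48 and 8.05. The top 3 beta segments held 41.5% and 46.1% of reads in saline and 51.4% and 51.3% in vanoxerine. For alpha, with copies kept apart, the saline libraries had 15.8 and 17.7 and the vanoxerine libraries 21.1 and 20.5. Merging reduced that difference, to 14.5 ± 0.70 against 17.0 ± 1.34 (mean ± SD, n = 2). Beta use was thus slightly more concentrated and alpha use slightly more even in vanoxerine, and in both cases the groups did not overlap. With shares of TPM in place of reads, the beta difference had the other sign (0.30 in place of -1.07).

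More alpha segments were also detected in vanoxerine. With copies kept apart, 37 and 42 Trav segments had reads in saline and 55 and 57 in vanoxerine. At an equal depth of 843 alpha reads the expected numbers were 37.0 and 42.0 against 54.7 and 56.9. Merged, they were 28.0 and 28.0 against 35.0 and 37.9. Beta segments with reads numbered 19 and 18 in saline and 19 and 21 in vanoxerine.

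The gamma and delta chains, which pair in gamma-delta T cells, had few reads. Trdv4, the delta segment with the most reads, had 76 and 68 in saline and 121 and 134 in vanoxerine. It took 67.3% and 61.3% of delta reads in saline and 68.4% and 81.7% in vanoxerine. Both vanoxerine libraries were above both saline libraries, but Trdv4 was not called (log2 fold change 0.95 ± 0.30, SE; edgeR, adjusted p = 0.0523). The call appeared without saline replicate 1 (0.0201) or 2 (0.0233), with log2(TPM + 1) (0.0130) and with a mean CPM of at least 1 (0.0406). Trdv1 had 8 and 22 reads in saline and 6 and 1 in vanoxerine, Trdv2-2 had 16 and 5 against 26 and 14, and Trdv5 had 13 and 16 against 24 and 15. None of the other delta segments had reads.

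Trgv2 dominated the gamma chain in every library. It had 151 and 125 reads in saline and 138 and 109 in vanoxerine, or 88.8% and 96.9% of gamma reads against 86.8% and 69.0% (log2 fold change -0.03 ± 0.27, SE; edgeR, adjusted p = 0.942). Trgv4 had 4 and 0 reads in saline and 20 and 28 in vanoxerine and was not called (adjusted p = 0.0746), with calls under DESeq2 (0.0343), limma-voom (0.0403), log2(TPM + 1) (0.0165) and without saline replicate 1 (0.0049). Trgv1 had 1 and 14 reads in vanoxerine and none in saline. Trgv3 had 15 and 4 reads in saline and none in vanoxerine. Trgv7 and Trgv6 had 6 reads and 1 read, both in vanoxerine replicate 2. At 129 to 170 gamma reads per library, 3 reads are 1.76% to 2.33% of the chain, so differences among these rare segments were near the limit of detection.

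The constant genes of these chains were tested in the same fit. Trdc, the delta constant gene, was higher in vanoxerine, with 222 and 260 reads in saline and 594 and 624 in vanoxerine (log2 fold change 1.46 ± 0.18, SE; edgeR, adjusted p = 0.00168). The gamma constant gene Trgc1, which in the mouse is joined to the cluster with Trgv4 and Trgv6, was higher (1.73 ± 0.36, adjusted p = 0.0133). Trgc2, the constant gene joined to Trgv2, was lower (-0.68 ± 0.14, adjusted p = 0.0114), and Trgc4 was not called (0.88 ± 0.35, adjusted p = 0.102). The gamma constant genes resemble each other in sequence, so their split is uncertain. Of the 8 tested genes of the gamma-delta list, 4 were higher, 1 was lower and 3 were not called. Over all genes tested, 21.0% were called higher and 15.9% lower. The median log2 fold change of the list was 1.17, against -0.0096 over all genes. Trdc, Trgc1 and Trgc2 are among the genes of the list that were called. Blk, which encodes a Src family kinase of B cells and of interleukin-17-producing gamma-delta T cells, was higher (3.55 ± 0.60, adjusted p = 0.0062), and so was Cd163l1, a scavenger receptor gene of gamma-delta T cells (2.85 ± 0.52, adjusted p = 0.0079). Sox13, which encodes a transcription factor of such cells, was not called (0.658).

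Summed by chain, the variable reads differed little between groups except for delta. Reads of Trav segments with dv in their name are in the Trav sum and not in the Trdv sum. The sums were 11.0 and 12.2 CPM in saline and 13.5 and 13.2 CPM in vanoxerine for Trav, and 25.7 and 22.8 CPM against 27.2 and 26.1 CPM for Trbv. The Trgv sums were 2.23 and 1.81 CPM against 2.30 and 2.40 CPM. The Trdv sums were 1.48 and 1.56 CPM against 2.56 and 2.49 CPM, a log2 ratio of 0.73, while the other chains had 0.20 (Trav), 0.13 (Trbv) and 0.22 (Trgv). With 2 libraries a group, an exact permutation test of a single sum cannot go below p = 0.333, so no p is given. The Trav and Trbv values shift with scaling and were 0.066 and 0.0016 with upper-quartile factors.

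**Figure D5:**
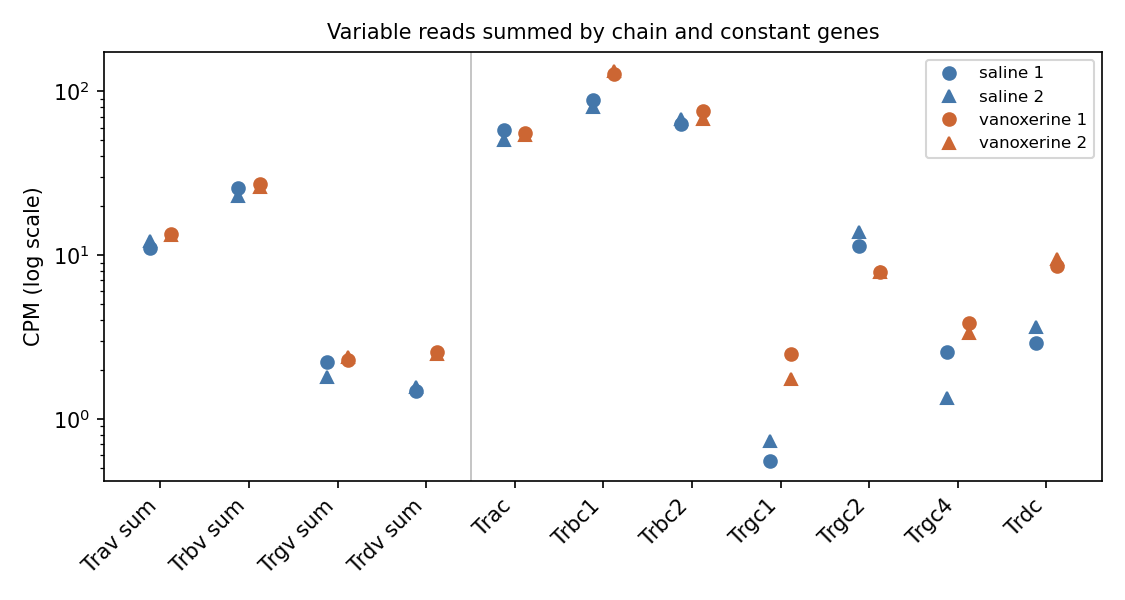
Variable reads summed by chain (left) and single constant genes (right) are drawn in CPM on a log axis, 1 point per library. Trdv lies at 1.48 and 1.56 CPM in saline and 2.56 and 2.49 CPM in vanoxerine, and Trdc is higher in both vanoxerine libraries than in both saline libraries.

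Variable reads were fewer than those of the constant genes, which are longer. Per 100 reads of the constant genes of the chain, Trav had 19.1 and 24.2 variable reads in saline and 24.1 and 24.5 in vanoxerine. Trbv had 16.9 and 15.5 against 13.4 and 13.0, and Trdv had 50.9 and 42.7 against 29.8 and 26.3. The Trdv value was thus lower in vanoxerine while both Trdv and Trdc reads were more numerous there, since the constant gene differed more. The Trdv reads leave out any delta transcripts that use a Trav segment with dv in its name. Variable reads also hold only the part of a transcript that matches a germline segment.

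Other genes of the receptor moved in both directions. Of the 15 receptor partners tested, 4 were higher and 5 were lower, with a median log2 fold change of 0.02, where 21.0% and 15.9% of all genes were called. Trac, the alpha constant gene, was at 57.9 and 50.3 CPM in saline and 55.9 and 53.9 CPM in vanoxerine (edgeR adjusted p = 0.870). Of the beta constant genes, Trbc1 was higher (0.63 ± 0.07, SE; adjusted p = 0.00101) and Trbc2 was not called (0.13 ± 0.07, adjusted p = 0.208). These have near-identical coding sequences, so their split is uncertain. The CD3 gene Cd3g was lower (-0.31 ± 0.07, adjusted p = 0.0141), and Cd3d, Cd3e and Cd247, which encode the other CD3 and zeta chains, were not called.

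The coreceptor genes also differed. Cd4, the coreceptor of helper T cells, had 2.75 and 2.25 CPM in saline and 4.97 and 4.75 CPM in vanoxerine and was higher (0.96 ± 0.20, SE; edgeR adjusted p = 0.0137). Cd8a was lower, from 145 and 146 CPM in saline to 120 and 114 CPM in vanoxerine (-0.32 ± 0.05, adjusted p = 0.0045), and Cd8b1 was lower as well (-0.60 ± 0.07, adjusted p = 0.00125). CD8 transcripts thus remained far more abundant in reads than Cd4 in both groups. Ptcra, the surrogate alpha chain of developing thymocytes, was lower (-1.39 ± 0.27, adjusted p = 0.0101). Rag1 and Rag2, the recombinase that joins the segments, had 0 reads in all 4 libraries, and Dntt, which adds bases at the joints, was not called (-0.66 ± 0.49, adjusted p = 0.346). Of the 6 genes of resting T cells, 3 were higher and 3 were not called, where 21.0% of all genes tested were called higher. The higher ones were Il7r (1.10 ± 0.09), Tcf7 (0.71 ± 0.09) and Ccr7. Ccr7 had 7.93 and 10.4 CPM in saline and 26.2 and 25.5 CPM in vanoxerine.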

How the data were processed

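RNA-seq libraries of MC38 tumours were compared, 2 of saline and 2 of vanoxerine. The submitters' processing notes name fastp, Salmon 1.3.0, DESeq2 and the build GRCm38. For annotation release and strand setting, the sources used here give nothing. The authors' per-library files list 140992 transcripts with, per the file headers, an effective length, a TPM value and Salmon's estimated count of reads. The authors' deposited table of the comparison holds a base mean (a normalized signal), a log2 fold change with its error, and a p-value before and after adjustment, per the file headers. Which libraries entered it is not stated. Another 4 per-library columns in it match no sample by name and were not used.

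Transcripts were assigned to genes with GENCODE M21 (139791 of 140992, holding 99.56% to 99.63% of reads), and 8 segments were named through RefSeq synonyms. Estimated counts were summed per gene, rounded and tested on all 18758 genes that passed the edgeR filter (minimum count 10, minimum total 15). The fit used edgeR 4.0.16 (R 4.3.3) with TMM factors, no block, and Benjamini-Hochberg adjustment at 0.05. Shares are estimated reads of a segment over all variable reads of its chain, not divided by length, with 95% Wilson intervals. A limit of 3 reads per library stands for a count of 0. Merged Trav segments drop the letters d and n and any ending that starts with dv. The fit was checked on simulated data. Alternatives were other scalings and filters, DESeq2 1.42.0, limma 3.58.1 (voom, and log2(TPM + 1)), leave-one-out fits and a replicate block. A leave-one-out fit takes the spread of the remaining single library from the other group.

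Segments were named if they held at least 5% of their chain's reads, were called, differed most in share without overlap (up to 5 per direction for Trav and Trbv), or were Trbv3, Trav11, Trav1 or a gamma or delta segment with reads, which gave 38. The members and gene lists were chosen with earlier results of these data known. Of the gamma-delta list, 1 gene is counted but not reported here by name.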

Additional observations from a re-analysis of the deposited data

How the results depend on the processing

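The calls of Trbv3 (log2 fold change 3.98 to 5.01) and Trbv26 held under all 13 alternatives. Leaving out 1 library gave 1 to 17 segments called higher and 2 to 9 called lower, against 7 and 6, and a log2 fold change of Trbv3 of 4.74 to 5.01. With a mean CPM of at least 1, 3 were higher and 3 lower of 13 tested. With log2(TPM + 1), 14 were higher. Libraries that share a replicate number did not deviate together (correlation -0.013 over 13863 genes). With 2 libraries a group this cannot exclude a pairing, and the labels do not state one. The replicate block gave 5 higher and 5 lower, and a log2 fold change of Trbv3 of 4.86. Merging copies gave 5 higher and 8 lower. Over all genes, 3933 higher and 2983 lower calls became 2895 and 4525 with upper-quartile factors and 4094 and 870 with log2(TPM + 1), as the median log2 fold change of all genes went from -0.0096 to -0.14 and 0.13.

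The summed Trav log2 ratio was 0.066 with upper-quartile factors, 0.36 with TPM and 0.13 to 0.27 without 1 library. For Trbv it was 0.0016 with upper-quartile factors and 0.051 to 0.22 without 1 library. For Trgv it was 0.51 with TPM and 0.077 to 0.37 without 1 library. For Trdv it was 0.60 with upper-quartile factors, 0.69 with library totals, 0.81 with TPM and 0.70 to 0.77 without 1 library. The difference in effective number of alpha segments was 4.09, with 2.53 after merging copies, 0.92 after merging families and 3.13 to 5.06 without 1 library. For beta it was -1.07, with 0.30 from TPM shares and -1.29 to -0.86 without 1 library. The Trbv3 share differed by 21.5 percentage points, by 14.6 with TPM shares and by 19.9 to 23.2 without 1 library. The cause of these shifts was not tested.

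Some log2 fold changes turned their sign, none of them called under the settings that turned it: Trbv13-2 (0.18) and Trgv2 (0.19) with log2(TPM + 1), Trgv2 without 1 library (-0.16 to 0.11; 0.056 without saline replicate 1, 0.11 without vanoxerine replicate 2), and, without saline replicate 1, Trbv20 (0.16) and Trav5-4 (-0.11). Without saline replicate 2 the last 2 had -0.90 and 8.99, and both were then called. Over the 29 other named segments with a fitted value, 320 of the recomputed values kept direction and side of the threshold, 30 lost the call and 31 gained one. Depth limits the rare segments: 3 reads were 0.322% to 0.356% of alpha reads and 1.70% to 2.70% of delta reads.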
